A study of Mus musculus with 18 samples.

Results

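Collagen and ADAMTS rows were taken from the gene count table of an immortalised mouse brown adipocyte line by their symbols, as every row named Col, a number, a and a number, or Adamts or Adamtsl and a number. Of the 17672 gene rows, 67 had such a symbol, and 43 of these reached 10 or more counts in at least 3 libraries and are described here, namely 30 collagen chains, 11 ADAMTS proteases and 2 ADAMTS-like proteins. All cells carried a stable lentiviral shRNA against Abhd5, the gene of a protein that activates the triglyceride lipase ATGL. They also held a doxycycline-inducible vector (pINDUCER20) with an ABHD5 that the shRNA cannot target and that carries an mCherry tag. Cells kept without doxycycline (Dox) are labelled ABHD5 KD, and cells given 1 µg/ml Dox are labelled WT. The labels give 24 to 48 h of Dox in general, and the study states 24 h for the stimulations with ISO and SR-3420. Both were treated for 3 h with the vehicle DMSO, with 10 nM of the β-adrenergic agonist isoproterenol (ISO) or with 20 µM of the ABHD5 ligand SR-3420, which gave 6 groups of 3 libraries and 18 libraries in all. Groups with and without Dox differ both in Dox and in ABHD5, and the effects of the drug and of the protein cannot be told apart in these libraries.

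Collagens are secreted proteins whose chains wind into a triple helix. Fibrillar collagens such as types I, III and V give tissue its tensile strength, type IV forms the sheet of the basement membrane that surrounds each adipocyte, type VI forms beaded filaments that are abundant around fat cells, and fibril-associated types such as XII and XIV sit on the surface of fibrils. ADAMTS enzymes are secreted zinc proteases with thrombospondin repeats: some cleave proteoglycans such as versican and aggrecan, some trim procollagens, some cut cartilage oligomeric matrix protein, and others act on the fibrillin microfibrils, while ADAMTS-like proteins have the repeats but no protease domain. Matrix remodelling around adipocytes is known to accompany the growth and activation of adipose tissue.

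Libraries held 689910 to 1956565 counts, with a median of 1145729, and levels below are in CPM, counts relative to the TMM-scaled library total, with SD over n = 3 libraries. For 40 of the 43 rows the length used for counting was that of the introns to within 10%, and for 0 of them that of the exons, against 72.6% and 2.27% of 16536 genes checked the same way (the study names a gene-wide count option). Where in the genes the counted reads lie was not tested. Abhd5 had 47.2 to 55.8 CPM with DMSO without Dox and 484 to 656 CPM with DMSO with Dox, and every library with Dox exceeded every library without it. In cells with the knockdown it had 130 to 173 CPM with ISO and 70.9 to 78.5 CPM with SR-3420, both above all DMSO libraries without Dox (Abhd5, adjusted p = 3.34e-07 and 0.296, edgeR). Of 13 brown adipocyte markers 12 were in the table, Ucp1 ranging from 0 to 347 counts in a library. Their summed level had means of 3845, 4712 and 5127 CPM with DMSO, ISO and SR-3420 without Dox and of 4441, 7443 and 6524 CPM with Dox. Of these 12, edgeR called 4 higher and 1 lower with ISO without Dox, 11 higher with ISO with Dox, 3 higher with SR-3420 without Dox, 7 higher with SR-3420 with Dox and 1 higher with Dox in DMSO, beside 28%, 32.5%, 0.766%, 9.9% and 1.18% of all genes. For 3 of them the ISO response differed with Dox (2.18% of all genes). The preadipocyte and fibroblast markers Cd34, Thy1, Dpp4 and Pi16 had at most 2 counts in any library, but Cd44 reached 3415 counts, and the list of 10 summed to 505 to 3144 CPM. Its means were 619, 1158 and 819 CPM with DMSO, ISO and SR-3420 without Dox and 861, 854 and 1717 CPM with Dox. Of the 5 tested, Cd44 and Ly6a were called higher and Pdgfrb lower with ISO without Dox, Pdgfrb lower with ISO with Dox, and 0 with SR-3420 with Dox. Summed endothelial markers were low but moved with ISO, from 6.80 to 17.2 CPM with DMSO to 21.6 to 26.8 CPM with ISO without Dox, and from 8.33 to 14.9 CPM to 18.3 to 24.4 CPM with Dox. Of that list of 7, Tek was tested and called higher (log2 fold change 1.25 ± 0.38 and 1.13 ± 0.37), while Tie1 was at 0 in all libraries and Cdh5 and Kdr had at most 1 count. Smooth muscle markers had means of 33.8 and 24.6 CPM with DMSO and ISO without Dox and 39.5 and 31.0 CPM with Dox, and Myh11 was called lower with ISO (-1.90 ± 0.69 and -1.87 ± 0.51). Macrophage markers had at most 20.2 CPM. What part these marker changes have in the values below was not tested. The replicates come from separate experiments according to the study's methods. The library SR-3420 with Dox replicate 1 stood apart, with 35.6% of its counts in its 10 most abundant genes against a median of 20.8% over the libraries. In bulk RNA, fewer cells of a kind and less RNA per cell cannot be told apart.

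Levels between rows were compared per kilobase, and their order depends on which length is used. Per kilobase counted and averaged over the 6 groups, the first rows were chains of type VI collagen, with 83.7 CPM per kilobase for Col6a1 and 38.9 for Col6a2. Col1a1 of type I followed at 24.9 CPM per kilobase, Col4a1 of the basement membrane at 16.1, Col3a1 at 11.5 and Col15a1, a basement membrane zone collagen, at 10.5. The first proteases in that order were Adamts1 at 7.05 and Adamts6 at 4.01 CPM per kilobase. The median over members was 2.24 CPM per kilobase for the collagens and 0.563 for the ADAMTS and ADAMTSL rows. Per kilobase of annotated exons, Col6a1 (260 CPM per kilobase) and Col4a1 (252) came first and were nearly level, Col15a1 (163) passed Col1a1 (50.8), and Adamts6 (154) stood far above Adamts1 (5.53). The medians were then 14.4 for the collagens and 3.75 for the ADAMTS and ADAMTSL rows. Summed over all collagen rows, the level was 7321 ± 908 CPM with DMSO without Dox and 9972 ± 789 CPM with ISO and 8663 ± 319 CPM with SR-3420 without Dox. With Dox the collagen sum was 9164 ± 739 CPM with DMSO, 11109 ± 788 CPM with ISO and 11406 ± 1568 CPM with SR-3420. The last group had 13216, 10552 and 10449 CPM in its libraries, and 3971 CPM of the first were those of Col6a6. The sum over the ADAMTS and ADAMTSL rows had group means between 1285 and 1434 CPM.

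Of the 24 rows left out, 13 were collagens and none of these exceeded 13 counts in a library, while the most in any left-out ADAMTS row was 17. At the limit, Col11a1, Col24a1 and Col28a1 were kept with 10 or more counts in 3 libraries each, and Col4a4 and Adamts4 were left out with 2 libraries each. Col11a1 and Col28a1 did not pass the abundance filter of the test, which 41 members did: 28 collagens and 13 ADAMTS or ADAMTSL rows. Col11a1 had its 3 libraries in the group ISO with Dox, and 6 of the 7 libraries in which Col14a1 reached 10 counts were ISO libraries, so that both were kept through groups in which they were high.

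Col4a1 (chr8:11198423-11312826, minus strand, mm9) and Col4a2 (chr8:11312829-11449287, plus strand) encode the chains of the most common type IV collagen and are transcribed away from each other. In the 30 bases shown, the first base of each row is in capitals, the left one that of Col4a1 and the right one that of Col4a2, to show that only 2 bases lie between the rows (chr8:11312813-11312842, plus strand of mm9).
Col4a1 and Col4a2 starts: ggcggcgtctccaAggGgaggaccctgcgg
The rows do not overlap, but in the annotation used here Col4a1 overlaps Col4a2 and Gm15418, and Col4a2 overlaps Gm15419. Since counting was not stated to use strand, reads from such stretches cannot be told apart, which holds for both levels and for their ratio.

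Upstream sequence is shown for the members of each family with the largest rise with ISO, Col14a1 (chr15:55139305-55352358) and Adamts9 (chr6:92722693-92851435). It is also shown for Adamts12 (chr15:10994545-11276622), a protease with ISO libraries below and SR-3420 libraries above DMSO. In the analysis as reported, both of these changes of Adamts12 were called in neither Dox state. Each run is the 250 bases before the first base of the row in mm9, 5′ to 3′ on the strand of the gene, and capitals mark TGACG, the core letters of the cAMP response element bound by CREB. The windows are chr15:55139055-55139304, chr6:92851436-92851685 and chr15:10994295-10994544.
Col14a1: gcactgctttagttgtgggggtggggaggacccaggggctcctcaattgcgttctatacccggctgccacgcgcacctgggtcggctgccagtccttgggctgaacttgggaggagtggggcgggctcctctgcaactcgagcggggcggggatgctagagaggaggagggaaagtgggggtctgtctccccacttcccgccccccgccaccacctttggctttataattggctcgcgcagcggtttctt
Adamts9: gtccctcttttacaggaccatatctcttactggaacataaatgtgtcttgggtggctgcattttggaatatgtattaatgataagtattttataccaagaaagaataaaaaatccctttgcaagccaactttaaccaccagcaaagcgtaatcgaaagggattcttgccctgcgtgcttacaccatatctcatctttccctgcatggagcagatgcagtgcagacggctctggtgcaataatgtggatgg
Adamts12: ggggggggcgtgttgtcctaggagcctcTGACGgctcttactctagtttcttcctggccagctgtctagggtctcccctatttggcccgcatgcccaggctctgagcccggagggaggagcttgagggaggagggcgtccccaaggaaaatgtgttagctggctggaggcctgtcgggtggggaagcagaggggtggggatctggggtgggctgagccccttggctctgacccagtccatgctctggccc
On either strand, TGACG stood in this window of 10 of the 43 members and of 22.5% of all 17672 rows, a similar share; this match describes the letters only. Beside Adamts12, whose match began 222 bases before the first base of the row, these were Adamts1, Adamts3, Adamts5, Adamts15, Adamtsl3, Col4a5, Col5a2, Col11a2 and Col24a1. The whole element TGACGTCA, which contains TGACG, was in 0 of the 43 windows and in 2.24% of all rows, which says only that these letters are not in these windows. TGANTCA, bound by AP-1 factors, was found before Col6a1 (5.56% of all rows), and the E-box CACGTG before Adamts17 (7.45% of all rows). The first base of the Adamts9 row lies inside an exon of another annotated transcript of the gene, and the annotated gene begins 42051 bases further upstream, so that the window above lies within the annotated gene.

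How did β-adrenergic stimulation change these genes in cells with the ABHD5 knockdown? With ISO without Dox, levels of the basement membrane chains Col4a1 and Col4a2, the fibrillar chain Col27a1, the beaded filament chains Col6a3 and Col6a6, and the fibril-associated Col12a1 and Col14a1 rose, while Col1a2, Col5a1, Col8a1 and Col11a2 fell. Of the proteases, Adamts9 and Adamts17 rose and Adamts7, Adamts10 and Adamts12 fell. In edgeR's quasi-likelihood test at an adjusted p of 0.05 or less (Benjamini-Hochberg over 10178 genes), 16 of the 41 members were called, beside 28% of all genes tested. Among the 28 collagens 7 were higher (14.5% of all genes) and 4 lower (13.5% of all genes), and among the 13 ADAMTS and ADAMTSL rows 2 were higher and 3 lower. With a change of at least 2-fold as well, 9 members passed, beside 10.9% of all genes. Col14a1, kept through its ISO libraries, is in these counts and adds no support to them. The median log2 fold change was -0.19 over the collagens, 0.01 over the ADAMTS and ADAMTSL rows and -0.01 over all genes tested.

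The same comparison in cells with ABHD5 restored called 16 of the 41 members again, beside 32.5% of all genes. With Dox, 7 collagens were higher (16.4% of all genes) and 5 lower (16.1% of all genes), and 1 protease was higher and 3 lower. At 2-fold or more, 7 members passed, beside 13.1% of all genes. The median log2 fold change was -0.11 over the collagens, -0.12 over the ADAMTS and ADAMTSL rows and -0.02 over all genes. Both comparisons used separate control libraries and shared 12 of their 16 calls each, 75.0% of either list, all 12 in the same direction, with 7 higher and 5 lower. Of all genes, 1764 were called in both, which is 62% of the 2846 called without Dox and 53.3% of the 3309 called with Dox, and 1741 of them had the same direction, so the shared share is not read as particular to the members. The shared rows were 9 collagens and 3 proteases. Col14a1 is among them, and it adds no support to the counts with Dox either. A fit with the replicate block, whose numbers pair the libraries here, called 20 members with Dox, adding Adamts12, Col3a1, Col5a2 and Col18a1, and 4020 of all genes in place of 3309. The heat map of fold changes sets these side by side with the other comparisons.

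**Figure D1:**
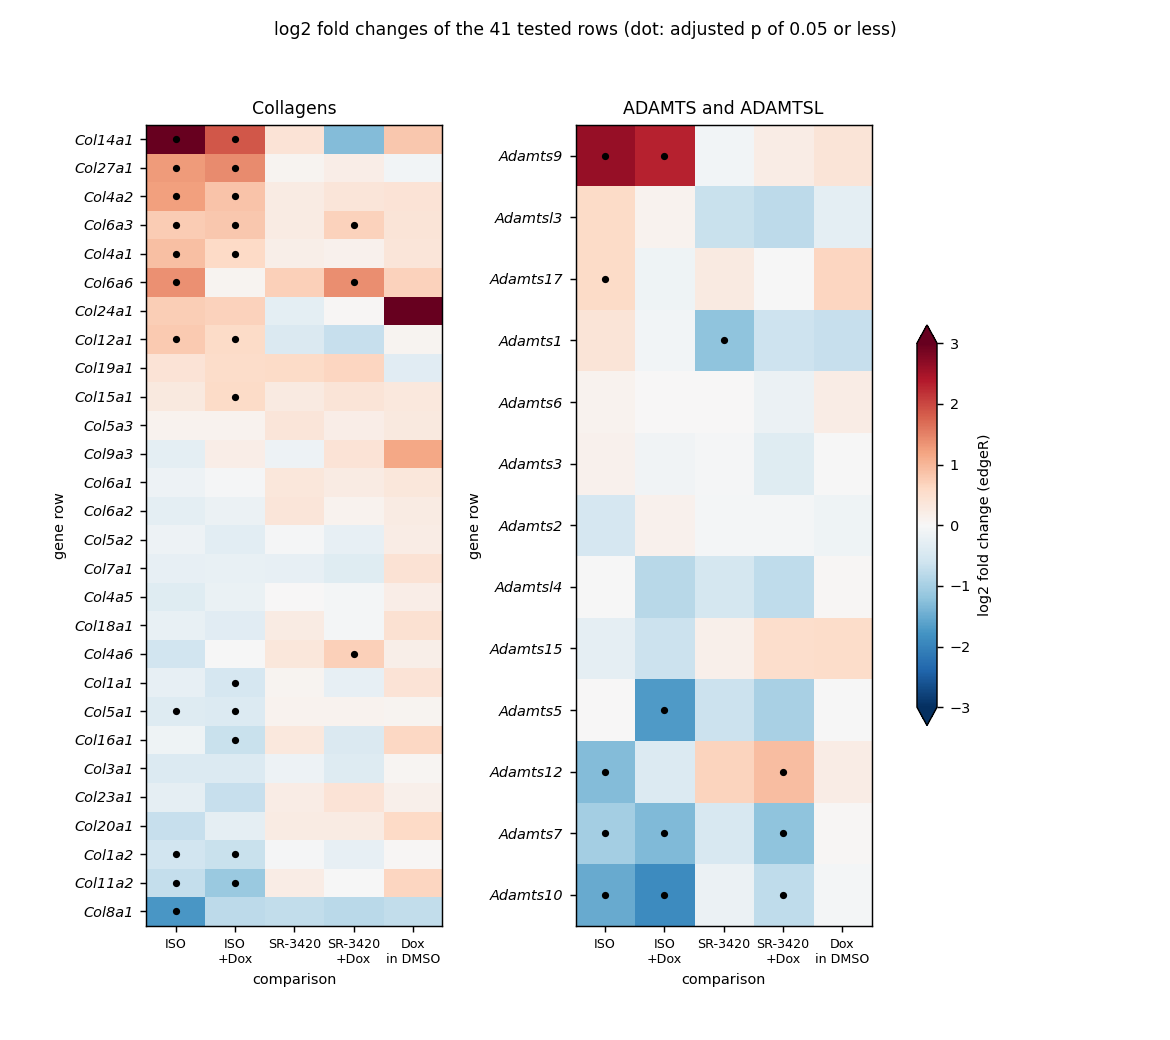
log2 fold changes (colour, blue lower and red higher, saturated beyond 3) of the 28 collagen rows on the left and 13 ADAMTS and ADAMTSL rows on the right in 5 comparisons; a dot marks an adjusted p of 0.05 or less. The dots gather in both ISO columns, where Col14a1 and Adamts9 lead, while the column for Dox in DMSO has no dot, also at the strongly coloured Col24a1, whose value rests on 1 library. Col14a1 was kept through its ISO libraries, and its dots add no support.

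Type IV collagen gave the most abundant change among the collagens. Col4a1 had 967, 1466 and 1137 CPM in the 3 DMSO libraries without Dox and 2281, 2140 and 2220 CPM with ISO. With Dox it had 1375, 1672 and 1565 CPM with DMSO and 2179, 2357 and 2477 CPM with ISO. Every ISO library lay above every DMSO library on either side of Dox, and the log2 fold change was 0.90 ± 0.17 (SE, adjusted p = 0.000172, edgeR) without Dox and 0.61 ± 0.17 (adjusted p = 0.00569, edgeR) with Dox. The call with Dox was lost when libraries were scaled by their totals alone (adjusted p from 3.1e-05 to 0.0578 over the alternatives).

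Col4a2, the partner chain, had 422, 560 and 513 CPM with DMSO without Dox and 1237, 1136 and 1148 CPM with ISO. With Dox the values were 607, 668 and 704 CPM with DMSO and 1107, 1158 and 1321 CPM with ISO. Again the groups did not overlap, and the log2 fold change was 1.24 ± 0.14 (adjusted p = 1.26e-07, edgeR) without Dox and 0.86 ± 0.14 (adjusted p = 1.87e-05, edgeR) with Dox. The X-linked chains Col4a5 and Col4a6, which lie head to head in the same way with 1342 bases between their rows, were not called with ISO. Their log2 fold changes were -0.36 ± 0.19 and -0.58 ± 0.24 without Dox, and -0.19 ± 0.18 and -0.00 ± 0.20 with Dox.

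Ratios between chains of a collagen type do not depend on the scaling of the libraries, and 4 such ratios were compared with an exact two-sided permutation test of the log2 ratio within each Dox state (3 against 3 libraries in each, 400 arrangements, smallest possible p 0.005), adjusted over 8 tests. These ratios were chosen after the values of their chains had been seen. The adjustment does not cover that choice, so their p-values describe the separation of the libraries and add no support. Per library, there were 12.8 to 28.1 counts of Col4a1 plus Col4a2 for each count of Col4a5 plus Col4a6 with DMSO without Dox and 41.3 to 52.2 with ISO, and 16.6 to 25.0 with DMSO with Dox against 32.0 to 37.6 with ISO. The ratio was 2.14-fold higher with ISO, in 6 of 6 libraries (adjusted p = 0.0133, exact permutation). The ratio of Col4a2 to Col4a1 was also higher, with 0.382 to 0.451 without Dox and 0.400 to 0.45 with Dox in DMSO libraries, and 0.517 to 0.542 and 0.491 to 0.533 in ISO libraries (mean log2 difference 0.29, 6 of 6 libraries, adjusted p = 0.0133, exact permutation). Taken over the 6 same-numbered pairs instead, an exact sign-flip test (64 patterns, smallest possible p 0.03125) gave each of these ratios, and that of Col6a3 described next, an adjusted p of 0.05, the lowest this test gave over the 8 ratios.

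**Figure D2:**
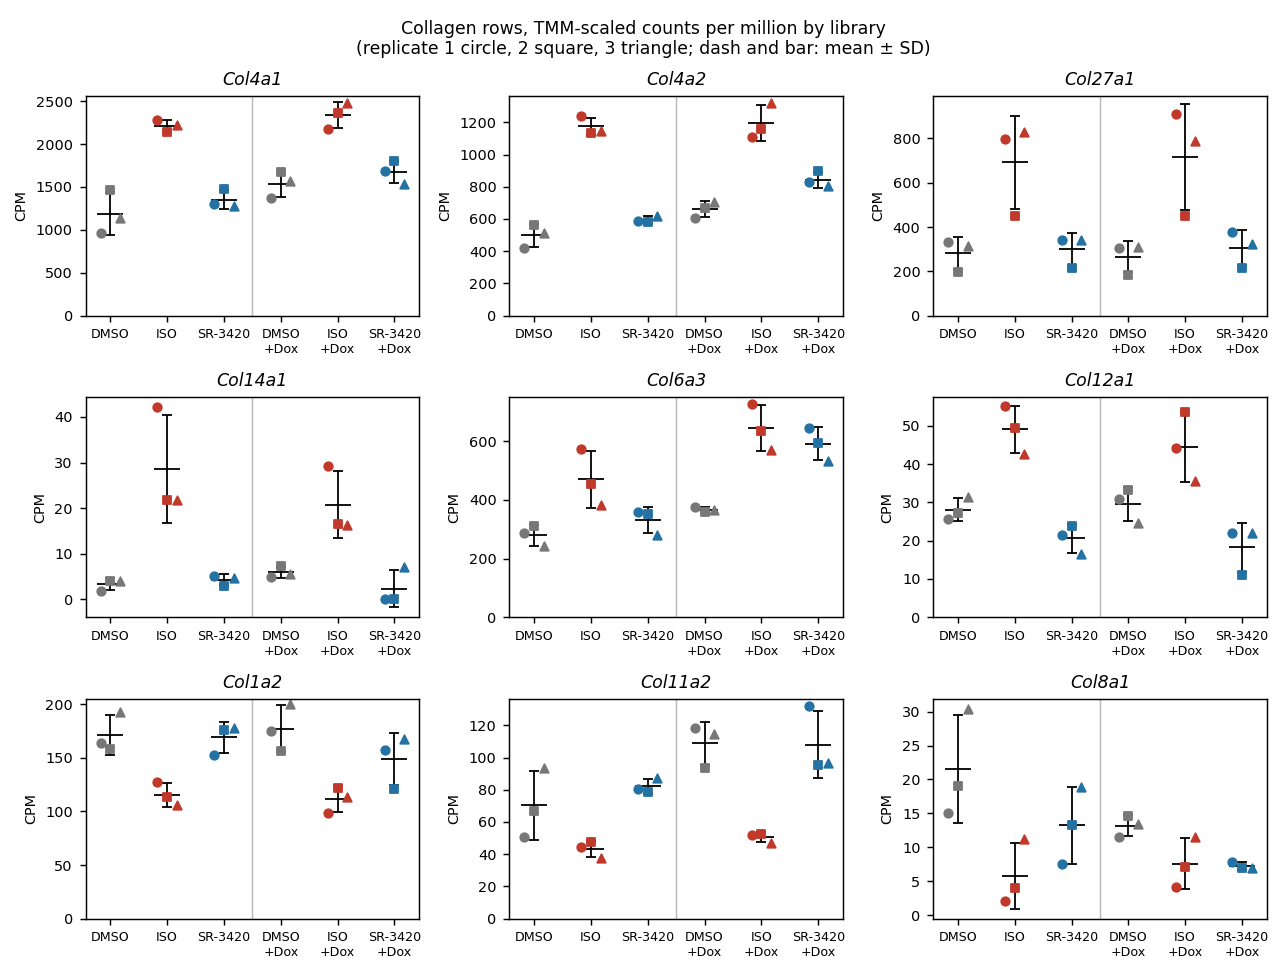
TMM-scaled CPM (linear axes) of 9 collagen rows in each of the 18 libraries, by group, with the mean and SD of 3 replicates; grey is DMSO, red ISO and blue SR-3420, and the groups with Dox stand right of the line. ISO libraries of Col4a1, Col4a2, Col27a1 and Col14a1 lie above the DMSO libraries on both sides, and those of Col1a2 and Col11a2 below.

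Type VI collagen is assembled from an α1 chain, an α2 chain and a larger partner. Col6a3, the usual partner, had 286, 312 and 241 CPM with DMSO without Dox and 575, 454 and 383 CPM with ISO. With Dox the values were 375, 360 and 366 CPM with DMSO, 726, 636 and 571 CPM with ISO and 646, 595 and 533 CPM with SR-3420. The groups stood apart, with log2 fold changes of 0.75 ± 0.15 (adjusted p = 0.00049, edgeR) for ISO without Dox and 0.81 ± 0.15 (adjusted p = 0.00011, edgeR) for ISO with Dox. Col6a1 and Col6a2 were not called in either comparison, with log2 fold changes of -0.16 ± 0.14 and -0.29 ± 0.14 without Dox and -0.04 ± 0.14 and -0.17 ± 0.13 with Dox. Accordingly the ratio of Col6a3 to Col6a1 plus Col6a2 went from 0.149 to 0.184 with DMSO to 0.293 to 0.414 with ISO without Dox, and from 0.173 to 0.195 to 0.309 to 0.416 with Dox. That was a 1.90-fold higher ratio, in 6 of 6 libraries (adjusted p = 0.0133, exact permutation), for a ratio chosen after its chains had been seen.

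Col6a6, an alternative to Col6a3 in the trimer, had widely scattered values. Its levels were 395, 611 and 430 CPM with DMSO without Dox and 608, 1980 and 1103 CPM with ISO, so that the groups overlapped (log2 fold change 1.37 ± 0.43, adjusted p = 0.0167, edgeR). With Dox it had 663, 629 and 1007 CPM with DMSO and 459, 724 and 1265 CPM with ISO, a log2 fold change of 0.09 ± 0.42 (adjusted p = 0.892, edgeR). The call without Dox was lost in DESeq2 and without DMSO without Dox replicate 1 or 3 or ISO without Dox replicate 2 (adjusted p up to 0.157).

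Col27a1, a fibrillar collagen of cartilage and other tissues, was among the rows that rose by more than 2-fold. It had 333, 199 and 313 CPM with DMSO without Dox and 796, 451 and 829 CPM with ISO, and with Dox 304, 184 and 310 CPM with DMSO and 909, 450 and 790 CPM with ISO. Replicate 2 was the lowest in every group, yet each ISO library exceeded all DMSO libraries. The log2 fold change was 1.29 ± 0.26 (adjusted p = 0.000374, edgeR) without Dox and 1.42 ± 0.26 (adjusted p = 8.17e-05, edgeR) with Dox. The row spans Mir455, which lies within Col27a1 in the annotation.

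The fibril-associated chains started from low levels. Col14a1 had 2, 3 and 4 counts with DMSO without Dox (1.78, 4.08 and 4.06 CPM) and 39, 22 and 29 counts with ISO (42.1, 21.8 and 21.8 CPM), a log2 fold change of 3.10 ± 0.55. With Dox it had 4.81, 7.29 and 5.62 CPM with DMSO and 29.2, 16.5 and 16.4 CPM with ISO (1.85 ± 0.47). Every ISO library lay above every DMSO library of the same Dox state. Since Col14a1 passed the filter on low counts through its ISO libraries, these values are a description, and its calls in the counts above add no support. Col12a1 had 28.2 ± 2.94 CPM with DMSO and 49.2 ± 6.18 CPM with ISO without Dox, and 29.6 ± 4.42 and 44.5 ± 8.98 CPM with Dox. Its ISO and DMSO groups did not overlap on either side of Dox, with log2 fold changes of 0.79 ± 0.23 (adjusted p = 0.0114, edgeR) and 0.58 ± 0.22 (adjusted p = 0.0419, edgeR). Both calls of Col12a1 were lost when libraries were scaled by their totals alone, the first also without DMSO without Dox replicate 1, and the second also in DESeq2 and without DMSO with Dox replicate 1 or 3, ISO with Dox replicate 1 or 2, or replicate 2 of all groups.

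Col15a1, a multiplexin of the basement membrane zone, was called with Dox. It had 753, 1229 and 866 CPM with DMSO and 1293, 1622 and 1323 CPM with ISO with Dox (0.58 ± 0.22, adjusted p = 0.0458, edgeR), against 760 ± 265 and 927 ± 196 CPM without Dox (0.29 ± 0.22, adjusted p = 0.354, edgeR), and the responses with and without Dox were not shown to differ (0.28 ± 0.31, adjusted p = 0.74, edgeR). The groups with Dox did not overlap, but the call was lost in 8 of 14 alternatives, among them DESeq2 and every fit that left out DMSO with Dox replicate 1 or 3 or an ISO with Dox library.

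Of the fibrillar collagens, Col1a2, Col5a1 and Col11a2 were lower with ISO in both comparisons, while Col27a1 was higher. Col1a2, the α2 chain of type I, had 164, 158 and 193 CPM with DMSO and 128, 113 and 106 CPM with ISO without Dox, and 175, 156 and 200 CPM against 98.4, 122 and 114 CPM with Dox. ISO libraries lay below the DMSO libraries throughout, with log2 fold changes of -0.58 ± 0.15 (adjusted p = 0.00424, edgeR) and -0.67 ± 0.15 (adjusted p = 0.000734, edgeR). Col11a2, a chain of type XI, had 50.7, 66.7 and 93.3 CPM with DMSO and 44.3, 47.6 and 37.5 CPM with ISO without Dox, and 118, 93.7 and 115 CPM against 51.7, 52.8 and 47.2 CPM with Dox. Its decrease of -0.71 ± 0.20 (adjusted p = 0.00949, edgeR) without Dox was lost without DMSO without Dox replicate 3 or ISO without Dox replicate 3, and the decrease of -1.11 ± 0.18 (adjusted p = 2.02e-05, edgeR) with Dox stood in all 14 alternatives.

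Smaller decreases were found for Col5a1, a chain of type V, the collagen known to start the fibrils of type I. It had 307 ± 36.3 and 235 ± 16.8 CPM without Dox and 326 ± 51.3 and 245 ± 26.9 CPM with Dox (log2 -0.38 ± 0.14 and -0.41 ± 0.14, adjusted p = 0.0402 and 0.022, edgeR). The first call was lost in 7 of 14 alternatives, which were no filter on low counts and fits without DMSO without Dox replicate 2 or 3, any ISO without Dox library or replicate 2 of all groups. The second was lost without DMSO with Dox replicate 3 or ISO with Dox replicate 1 or 2. Col1a1 had -0.24 ± 0.19 (adjusted p = 0.372, edgeR) without Dox and was called with Dox, at 281, 284 and 466 CPM with DMSO and 190, 250 and 281 CPM with ISO, where the highest ISO library reached the lowest DMSO library (-0.51 ± 0.18, adjusted p = 0.0331, edgeR). The responses of Col1a1 were not shown to differ (-0.27 ± 0.26, adjusted p = 0.694, edgeR). The call with Dox was lost without DMSO with Dox replicate 3 (the library at 466 CPM) or ISO with Dox replicate 1 or 2. Col16a1, a fibril-associated chain, fell with Dox, from 76.1, 60.4 and 82.0 CPM to 31.7, 50.4 and 55.8 CPM (-0.67 ± 0.20, adjusted p = 0.0108, edgeR), a call lost without ISO with Dox replicate 1. Without Dox its value was -0.12 ± 0.22 (adjusted p = 0.721, edgeR), and the responses were not shown to differ (-0.55 ± 0.30, adjusted p = 0.421, edgeR).

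Col3a1, the partner of type I in soft tissue, was not called, with log2 fold changes of -0.42 ± 0.20 (adjusted p = 0.128, edgeR) without Dox and -0.40 ± 0.20 (adjusted p = 0.129, edgeR) with Dox. Col5a2 and Col5a3, the other type V chains, had -0.16 ± 0.19 and 0.09 ± 0.17 without Dox and -0.31 ± 0.18 and 0.10 ± 0.16 with Dox. The replicate block called Col3a1 and Col5a2 for ISO with Dox. Within the fibrillar group of 9 rows, 1 was called higher and 3 lower without Dox, and 1 higher and 4 lower with Dox, beside 14.5% and 13.5% of all genes without Dox and 16.4% and 16.1% with Dox. The ratio of Col1a2 to Col1a1 was lower with ISO by a mean log2 difference of -0.26, a difference that did not pass the exact permutation test over 8 ratios (adjusted p = 0.1). In same-numbered pairs it was lower with ISO in 6 of 6, and the exact sign-flip test gave an adjusted p of 0.05, although the numbers did not pair the ISO libraries without Dox by the correlation rule. Col8a1, a short-chain collagen of vessel and eye membranes, had 17, 14 and 30 counts with DMSO and 2, 4 and 15 counts with ISO without Dox (-1.75 ± 0.44, adjusted p = 0.00379, edgeR). With Dox it had 24, 14 and 12 counts against 5, 9 and 12 (-0.78 ± 0.44, adjusted p = 0.181, edgeR), and its ISO libraries then lay at 4.17 to 11.6 CPM against 11.6 to 14.6 CPM with DMSO (difference between the responses 0.97 ± 0.65, adjusted p = 0.531, edgeR).

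**Figure D3:**
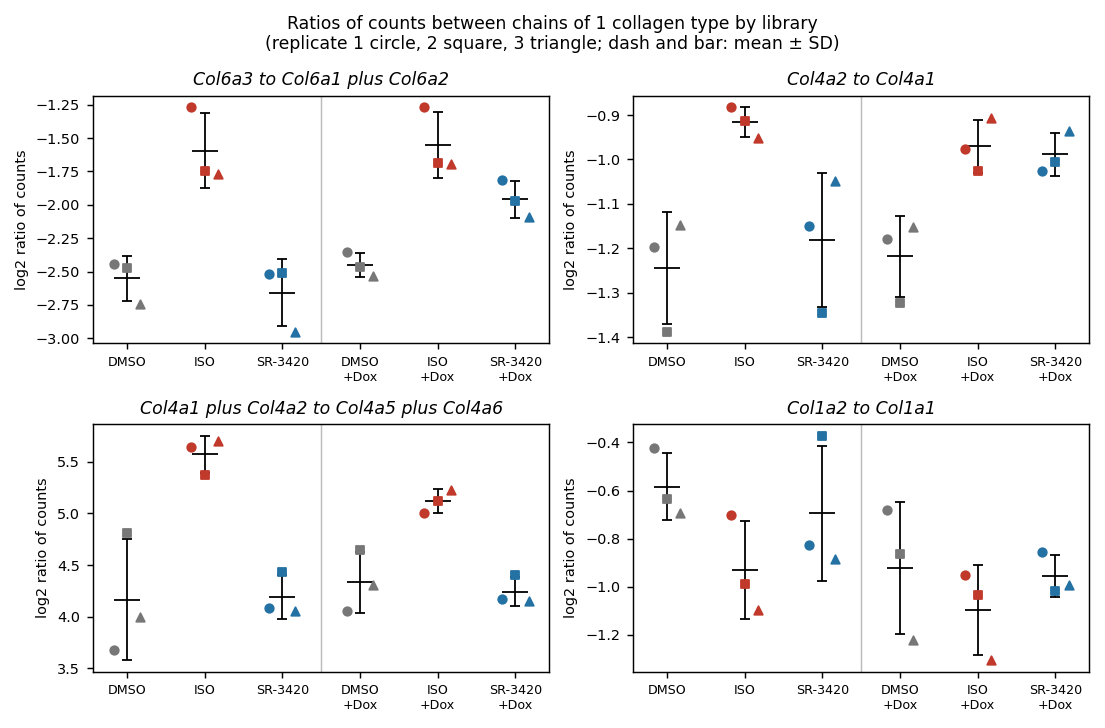
log2 ratios of counts between chains of 1 collagen type in each library, by group, with mean and SD of 3 replicates (the axes do not start at 0). ISO libraries lie above all DMSO libraries for the 3 ratios with Col6a3, Col4a2 and Col4a1 plus Col4a2 on top, while for Col1a2 to Col1a1 they overlap them with Dox.

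Adamts9, which cleaves versican and aggrecan, had the largest protease response to ISO. It had 14.2, 15.0 and 10.1 CPM with DMSO and 89.7, 79.3 and 74.3 CPM with ISO without Dox, and 15.9, 20.8 and 15.7 CPM against 80.0, 90.6 and 86.6 CPM with Dox. The groups were far apart, with a 6.16-fold rise without Dox (log2 2.62 ± 0.25, adjusted p = 6.41e-09, edgeR) and a 4.96-fold rise with Dox (2.31 ± 0.23, adjusted p = 4.33e-09, edgeR). SR-3420 libraries had 6.28 to 16.3 CPM without Dox and 15.8 to 28.0 CPM with Dox, overlapping DMSO. The genes A730049H05Rik and Gm15737 overlap the row in the annotation, and since counting was not stated to use strand, their reads cannot be told apart from those of Adamts9.

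Adamts10, a fibrillin-binding protease that takes part in microfibril assembly, fell. It had 89.9, 68.0 and 76.1 CPM with DMSO and 28.1, 20.8 and 32.3 CPM with ISO without Dox, and 75.6, 66.6 and 85.4 CPM against 23.3, 17.3 and 20.2 CPM with Dox. No libraries overlapped, and the log2 fold change was -1.52 ± 0.20 (adjusted p = 1.04e-06, edgeR) and -1.90 ± 0.20 (adjusted p = 1.87e-08, edgeR). Its relative Adamts6, the row with the most counts among the proteases, was not called, at 721 ± 47.6 and 770 ± 25.0 CPM without Dox and 835 ± 41.2 and 844 ± 129 CPM with Dox.

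Adamts7 and Adamts12 form the pair known to cleave cartilage oligomeric matrix protein. Adamts7 had 22.2, 25.8 and 30.4 CPM with DMSO and 14.05, 7.93 and 15.8 CPM with ISO without Dox, and 31.3, 25.0 and 21.3 CPM against 12.5, 8.66 and 10.6 CPM with Dox. ISO libraries were lower throughout, by -1.02 ± 0.30 (adjusted p = 0.0102, edgeR) and -1.33 ± 0.29 (adjusted p = 0.000703, edgeR) on the log2 scale, though the first call was lost without replicate 2 of all groups, without ISO without Dox replicate 2 alone and without DMSO without Dox replicate 3. Adamts12 had 73.9, 78.9 and 85.2 CPM with DMSO and 19.5, 40.6 and 34.5 CPM with ISO without Dox, a decrease of -1.31 ± 0.21 (adjusted p = 2.74e-05, edgeR). With Dox it had 80.9, 120 and 79.8 CPM with DMSO and 65.0, 70.9 and 74.1 CPM with ISO, which did not pass (-0.40 ± 0.18, adjusted p = 0.0857, edgeR) but was called with the replicate block.

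The proteoglycan-cleaving Adamts5 had 16.9, 20.4 and 30.4 CPM with DMSO and 23.8, 21.8 and 22.5 CPM with ISO without Dox (0.01 ± 0.31, adjusted p = 0.989, edgeR). With Dox it had 23.6, 21.9 and 21.3 CPM with DMSO and 2.5, 7.88 and 10.6 CPM with ISO, from 3, 10 and 11 counts (-1.70 ± 0.36, adjusted p = 0.000639, edgeR). With Dox all ISO libraries lay below the DMSO libraries, and without Dox they lay within their range. The responses with and without Dox were not shown to differ for Adamts5 (adjusted p = 0.0584, edgeR) or Adamts12 (adjusted p = 0.0831, edgeR). Adamts1, its neighbour on chromosome 16 with 55041 bases between the rows, was not called with ISO (0.39 ± 0.24 without Dox, -0.08 ± 0.27 with Dox). Adamts17 passed without Dox (52.5, 101 and 64.9 CPM against 96.2, 98.2 and 118 CPM, adjusted p = 0.034, edgeR), with overlapping groups and a call lost in 4 of 14 alternatives, namely scaling by totals alone and fits without DMSO without Dox replicate 1 or 3 or ISO without Dox replicate 3. With Dox its log2 fold change was -0.12 ± 0.18 (adjusted p = 0.662, edgeR), and the difference between its responses did not pass (adjusted p = 0.214, edgeR).

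**Figure D4:**
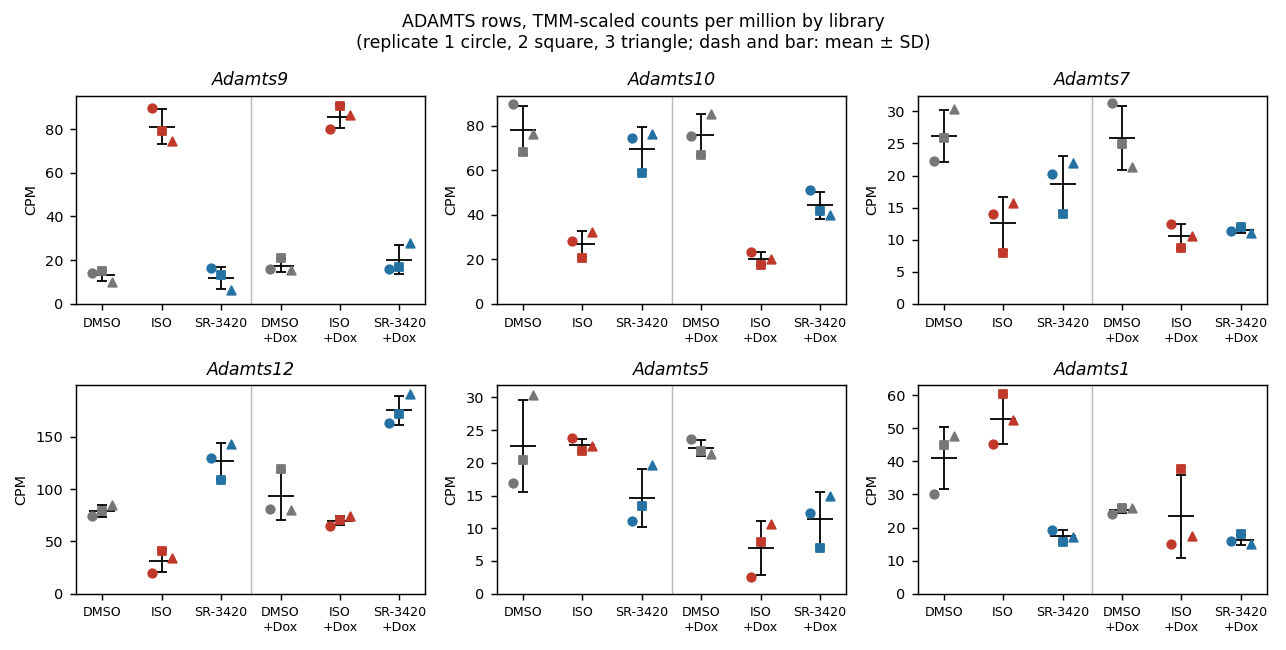
TMM-scaled CPM (linear axes from 0) of 6 ADAMTS rows in each of the 18 libraries, by group, with mean and SD of 3 replicates; colours as for the collagens. Adamts9 is high in the 6 ISO libraries alone, Adamts10 is low in them, and Adamts12 is highest in the 3 SR-3420 libraries with Dox.

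The remaining ADAMTS and ADAMTSL rows were not called with ISO. The procollagen N-proteinases Adamts2 and Adamts3 had log2 fold changes of -0.51 ± 0.41 and 0.13 ± 0.14 without Dox and 0.14 ± 0.37 and -0.10 ± 0.13 with Dox. Adamts15 was not called (-0.26 ± 0.49 and -0.65 ± 0.42), nor were Adamtsl3 (0.57 ± 0.34 and 0.10 ± 0.36) and Adamtsl4 (-0.00 ± 0.44 and -0.82 ± 0.49). Of the collagens not yet described, Col18a1, the source of endostatin, had -0.22 ± 0.17 and -0.34 ± 0.15 on the log2 scale, and the replicate block called it with Dox. Col20a1, a fibril-associated chain, had -0.69 ± 0.27 (adjusted p = 0.0515, edgeR) without Dox, just outside the threshold and called in 6 of 14 alternatives (adjusted p from 0.0126 to 0.306), and -0.28 ± 0.22 with Dox. Col7a1 of the anchoring fibrils had -0.25 ± 0.29 and -0.23 ± 0.25, the fibril-associated Col19a1 0.41 ± 0.51 and 0.55 ± 0.51, and the membrane-spanning Col23a1 -0.27 ± 0.42 and -0.69 ± 0.39.

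Dependence of the responses on Dox was tested by an interaction term. For ISO, 0 of the 41 members passed the adjusted test (2.18% of all genes), while 1 collagen and 3 proteases had an unadjusted p under 0.05 in edgeR (1436 of 10178 genes) and 0 passed in DESeq2 (256 of all genes). Adamts5 came nearest, with a log2 difference of -1.70 ± 0.48 between the responses (adjusted p = 0.0584, edgeR). Adamts12 followed at 0.91 ± 0.28 (adjusted p = 0.0831, edgeR). With the replicate block, which pairs same-numbered libraries, 2 members passed, Adamts5 and Adamts12, beside 600 of all genes in place of 222; over all alternatives their adjusted p ran from 0.0127 to 0.192 and from 0.0162 to 0.251. The other 2 rows under 0.05 before adjustment were Adamts17 (-0.68 ± 0.27) and Col6a6 (-1.28 ± 0.59). For Adamts9 and Col4a2 the 95% interval of the difference ran from -1.03 to 0.40 and from -0.76 to 0.00, so that an unequal response of either gene was not shown.

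The ABHD5 ligand is meant to start lipolysis without the β-adrenergic receptor, and its libraries were compared with the same DMSO libraries as those of ISO. Without Dox, where its target was knocked down, 1 of the 41 members was called with SR-3420, beside 0.766% of all genes: Adamts1 was lower (0.0688% of all genes), and 0 of 28 collagens were called (3 at an unadjusted p under 0.05 in edgeR, beside 893 of 10178 genes). Adamts1, which is induced early in many tissues and cleaves versican, had 30.3, 44.9 and 47.7 CPM with DMSO and 19.2, 15.7 and 17.3 CPM with SR-3420. Those groups did not overlap, and the log2 fold change was -1.21 ± 0.27 (adjusted p = 0.0206, edgeR). The call was lost without DMSO without Dox replicate 2 or 3, without any 1 of the SR-3420 without Dox libraries, and without replicate 2 of all groups (adjusted p up to 0.176). DESeq2 gave Adamts1 no adjusted p here and called 2 other members, Col6a1 and Adamts12, beside 97 of all genes.

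With Dox, 6 of the 41 members were called with SR-3420, beside 9.9% of all genes. Col6a3, Col6a6 and Col4a6 were higher (3 of 28 collagens, 6.53% of all genes), Adamts12 was higher, and Adamts7 and Adamts10 were lower (2 of 13, 3.37% of all genes). At 2-fold or more 2 members passed, beside 3.1% of all genes. The median log2 fold change was 0.11 over the collagens, -0.35 over the ADAMTS and ADAMTSL rows and -0.01 over all genes. Same-numbered libraries deviated together in both SR-3420 comparisons, and a fit with the replicate block called 11 members with Dox, adding Col3a1, Col4a2, Col15a1, Adamts3 and Adamts5, and 2 without Dox, adding Adamts12. Under the same block the calls over all genes went from 1008 to 1568 with Dox and from 78 to 238 without Dox.

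Adamts12 had 163, 172 and 191 CPM with SR-3420 with Dox, above the 79.8 to 120 CPM with DMSO (0.92 ± 0.17, adjusted p = 0.000317, edgeR). Without Dox the ligand libraries had 130, 109 and 143 CPM against 73.9 to 85.2 CPM with DMSO, which missed the threshold (0.68 ± 0.17, adjusted p = 0.0591, edgeR). On both sides of Dox the ligand libraries were above and the ISO libraries below the DMSO libraries of the same Dox state. Adamts10 had 51.0, 41.8 and 39.9 CPM with SR-3420 with Dox, between its DMSO and ISO levels (-0.77 ± 0.18, adjusted p = 0.00483, edgeR), and 69.7 ± 9.6 CPM without Dox (-0.18 ± 0.17, adjusted p = 0.841, edgeR).

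Adamts7 had 11.4, 11.9 and 11.0 CPM with SR-3420 with Dox, all below the DMSO libraries (-1.22 ± 0.29, adjusted p = 0.00577, edgeR), a call lost without DMSO with Dox replicate 1. Col6a3 was 1.61-fold higher with the ligand (0.69 ± 0.15, adjusted p = 0.00241, edgeR), a call lost with scaling by totals alone. Col4a6 rose from 36.6, 36.4 and 49.4 CPM to 80.0, 54.7 and 61.9 CPM (0.71 ± 0.19, adjusted p = 0.0155, edgeR). The groups of Col4a6 did not overlap, but its call was lost with scaling by totals alone and without DMSO with Dox replicate 1 or 2 or SR-3420 with Dox replicate 1. None of the 4 ratios between chains passed the unpaired test for SR-3420 (adjusted p from 0.112 to 0.855, exact permutation). That test averages both Dox states, which differed in sign for Col6a3 to Col6a1 plus Col6a2. This ratio had 0.129 to 0.175 with SR-3420 against 0.149 to 0.184 with DMSO without Dox (mean log2 difference -0.11), and 0.234 to 0.285 against 0.173 to 0.195 with Dox (0.49), where the libraries did not overlap. The Dox states were not tested one by one. In same-numbered pairs, which the correlation rule held to be paired for SR-3420, Col4a2 to Col4a1 was higher with the ligand in 6 of 6 (mean log2 difference 0.15, from 0.04 to 0.32), and the exact sign-flip test gave an adjusted p of 0.05. The other 3 ratios had adjusted p from 0.333 to 0.812 in that exact test.

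Col6a6 with SR-3420 with Dox had 3971, 667 and 1339 CPM, from 4518, 671 and 1341 counts, so that the call (1.38 ± 0.42, adjusted p = 0.0316, edgeR) rests on replicate 1. That library is the one that stood apart from the rest, and it also had the highest sum of preadipocyte and fibroblast markers, 3144 CPM, with 3415 counts of Cd44 among them. In ISO without Dox, too, the library highest in Col6a6 was the highest in Cd44. Without SR-3420 with Dox replicate 1 the log2 fold change was 0.40 and the call was lost, as it was in DESeq2 and without DMSO with Dox replicate 1 or 2. Whether the marker sum has a part in the value was not tested. Col4a1, raised by ISO on both sides of Dox, had log2 fold changes of 0.19 ± 0.17 and 0.12 ± 0.17 with SR-3420, and Col4a2 had 0.26 ± 0.14 and 0.36 ± 0.14.

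**Figure D5:**
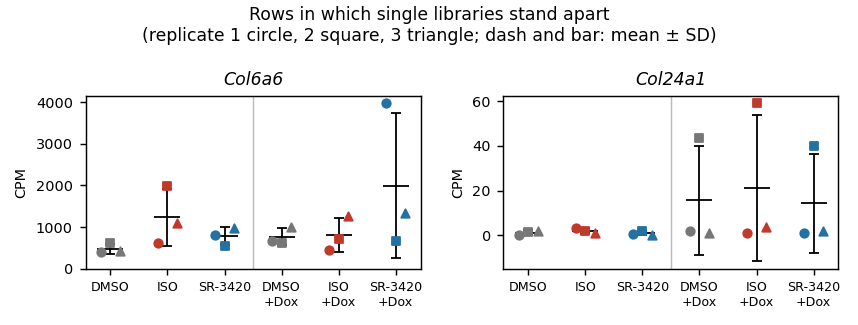
TMM-scaled CPM (linear axes) of Col6a6 and Col24a1 in each of the 18 libraries, by group, with mean and SD of 3 replicates. For Col6a6, 1 library of SR-3420 with Dox stands at 3971 CPM, and for Col24a1 the replicate 2 library of each group with Dox stands at 39.8 to 59.1 CPM while the other 15 lie at 3.85 CPM or less.

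The difference in the SR-3420 response with Dox passed for 0 of the 41 members (0.757% of all genes), with 0 passing in DESeq2 (85 of all genes). At an unadjusted p under 0.05 in edgeR were 2 collagens and 1 protease (1227 of 10178 genes). These were Col6a3 (0.44 ± 0.21), Col16a1 (-0.75 ± 0.29) and Adamts10 (-0.59 ± 0.25), at adjusted p of 0.408, 0.253 and 0.314 (edgeR).

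Dox itself, with ABHD5 restored and no stimulation, gave 0 calls among the 41 members at an adjusted p of 0.05 or less, beside 1.18% of all genes. The replicate block and the fit with no filter on low counts did call members here, and their counts are given in the closing section. An unadjusted p under 0.05 was reached by 11 of 28 collagens and 2 of 13 ADAMTS and ADAMTSL rows in edgeR, beside 1000 of all 10178 genes. DESeq2 called 1 member, Col6a1, beside 121 of all genes. Of the 28 collagens, 25 had a positive log2 fold change, with a median of 0.33 against 0.00 over all genes tested, while 7 of the 13 ADAMTS and ADAMTSL rows were positive with a median of 0.03. Among abundant chains were Col6a1 at 933 ± 39.4 CPM without Dox and 1180 ± 62.7 CPM with Dox (0.34 ± 0.14, adjusted p = 0.373, edgeR), Col4a1 (0.37 ± 0.17) and Col4a2 (0.41 ± 0.14). Among the proteases Adamts1 had the lowest value, from 40.9 ± 9.36 to 25.3 ± 1.08 CPM (-0.69 ± 0.26, adjusted p = 0.325, edgeR).

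Col24a1, a fibrillar collagen of bone, had 42, 75 and 40 counts in replicate 2 of the 3 groups with Dox and at most 4 counts in each of the other 15 libraries. It was called in none of the 7 comparisons in the analysis as reported. ISO with Dox passed once DMSO with Dox replicate 2 was left out, and Dox in DMSO passed with no filter on low counts and with the replicate block (adjusted p down to 9.87e-06, edgeR), while its mean in each group with Dox is that of 1 library. Col9a3 went from 4.79 ± 1.25 to 12.3 ± 5.78 CPM with Dox (1.17 ± 0.50, adjusted p = 0.418, edgeR), and overlaps Tcfl5, which is read from the other strand.

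Genes that act on collagens, or on which ADAMTS proteases act, were called in both directions with ISO, and the counts below stand beside 28% of all genes called with ISO without Dox, 32.5% with Dox and 9.9% with SR-3420 with Dox. The genes named from these lists were picked by small p-values in these data and do not stand for their lists. Of 28 tested genes that modify, fold or crosslink collagen, 5 were higher and 3 lower without Dox and 3 higher and 5 lower with Dox, with medians of -0.04 and -0.17 on the log2 scale (all genes -0.01 and -0.02). P4ha1, a prolyl hydroxylase subunit, rose by 0.73 ± 0.19 without Dox and 1.56 ± 0.18 with it (log2), and the crosslinking enzyme Loxl2 by 1.28 ± 0.15 and 1.06 ± 0.15. Plod2, a lysyl hydroxylase, fell (-0.43 ± 0.15 and -0.60 ± 0.16), and with Dox so did Crtap, a part of the prolyl 3-hydroxylase complex (-0.95 ± 0.22). With SR-3420 with Dox, 2 of these 28 rose and 3 fell, P4ha1 (1.18 ± 0.18) and Crtap (-1.08 ± 0.23) among them.

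Of 14 tested substrates and partners of ADAMTS proteases, 5 were higher and 6 lower with ISO without Dox, and 3 higher and 6 lower with Dox, with medians of -0.34 and -0.15. Comp, the cartilage oligomeric matrix protein that Adamts7 and Adamts12 cleave, fell (-1.68 ± 0.37 and -1.48 ± 0.35). Vcan, the versican substrate of Adamts9, rose without Dox (1.03 ± 0.21, adjusted p = 0.000509, edgeR) and had 0.39 ± 0.24 with Dox, with responses not shown to differ (adjusted p = 0.363, edgeR), and Ltbp2, which binds fibrillin microfibrils, rose in both (0.99 ± 0.14 and 1.17 ± 0.13). With SR-3420 with Dox, 2 of the 14 were higher, Thbs1 (1.41 ± 0.23) and Ltbp2 (0.72 ± 0.13).

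Among 16 tested basement membrane genes other than collagens, 5 were higher and 1 lower with ISO without Dox, and 3 higher and 3 lower with Dox, with medians of -0.13 and -0.05. Lamb1, a laminin chain, rose (2.57 ± 0.16 and 2.47 ± 0.15), Nid2, which links laminin to type IV collagen, rose by 1.15 ± 0.20 and 0.53 ± 0.21, and Lama4 fell without Dox (-1.27 ± 0.19) and had -0.07 ± 0.15 with it, a difference that passed (1.21 ± 0.24, adjusted p = 0.00508, edgeR). With SR-3420 with Dox 4 of the 16 were higher and 0 lower, Lamb1 (1.06 ± 0.15) and Lama4 (0.94 ± 0.15) among them. With SR-3420 without Dox 1 was higher, Lama4 (0.68 ± 0.16), beside 0.766% of all genes called.

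Of 10 collagen receptors 2 rose and 3 fell with ISO without Dox, and 1 rose and 3 fell with Dox, with Ddr2, a fibrillar collagen receptor kinase, rising in both (1.53 ± 0.20 and 0.84 ± 0.19). Of 8 matrix metalloproteinases and inhibitors 1 rose and 1 fell without Dox and 1 rose and 2 fell with Dox, Mmp28 rising (0.78 ± 0.21 and 0.93 ± 0.18) and Mmp2, a gelatinase, falling (-0.94 ± 0.20 and -0.80 ± 0.19). Of 17 other matrix proteins 4 rose and 4 fell without Dox and 1 rose and 3 fell with Dox. Of 15 TGF-β pathway genes 4 rose and 2 fell without Dox and 3 rose and 3 fell with Dox, among them the co-receptor Tgfbr3 (1.45 ± 0.19 and 1.33 ± 0.19). With SR-3420 with Dox, the counts higher and lower were 0 and 0 for the receptors, 1 and 0 for the metalloproteinases and inhibitors, 2 and 1 for the other matrix proteins and 3 and 0 for the TGF-β pathway. The medians of these 4 lists with ISO were -0.10, -0.70, -0.24 and -0.08 without Dox and -0.05, -0.41, -0.27 and -0.14 with Dox. With Dox in DMSO, 0 genes of any of the 7 lists were called by edgeR, beside 1.18% of all genes. Beside Lama4, the response to ISO differed with Dox for 1 gene of the 7 lists, the receptor Tgfbr1 (-1.14 ± 0.28, adjusted p = 0.0258, edgeR), where 2.18% of all genes were called. The response to SR-3420 differed with Dox for P4ha1 (1.31 ± 0.27, adjusted p = 0.0171, edgeR), where 0.757% of all genes were called.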

How the data were processed

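RNA from 3 replicates of each of 6 groups was sequenced, and the authors deposited 1 table of raw counts per gene. By the submitters' notes and the study's methods, reads were aligned to mm9 with STAR 2.4.2a, tag directories were built with HOMER, keeping 1 read per position, and gene counts were made with iRNA-seq. Whether strand was used is not given in the sources used here. Column names matched the sample titles. The counts were tested as deposited in edgeR 4.0.16 (R 4.3.3), with TMM factors, filterByExpr and quasi-likelihood tests over all 18 libraries with 1 mean per group. Of 17672 genes, 10178 were tested, and p-values were adjusted over these (Benjamini-Hochberg). SE is the size of the log2 fold change divided by the square root of F. Members and gene lists were chosen with earlier results of these data known. Fixed members and every other called member were named, and up to 4 genes of each other list. Those list genes were picked by small p-values in these data, by plan in the ISO comparisons. Same-numbered libraries were taken as paired where every correlation of their deviations from the group means exceeded 0.1, which held for ISO against DMSO with Dox and for SR-3420 against DMSO with and without Dox (median r 0.149 over 45 pairings, 36 of them over 0.1). Alternatives were RLE factors, library totals, other filters, DESeq2 1.42.0, the replicate block and leaving libraries out. Analyses were tested on simulated counts.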

Additional observations from a re-analysis of the deposited data

How the results depend on the processing

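Of 39 calls of a member in a comparison, 22 stood under every alternative run, 17 were lost under at least 1, and 0 reversed. A change of at least 2-fold as well left 9 of 16 members for ISO without Dox, 7 of 16 with Dox and 2 of 6 for SR-3420 with Dox. With no filter on low counts, SR-3420 without Dox called 3 members (1 in the analysis as reported), Dox in DMSO 4 (0) and the ISO difference with Dox 3 (0), while all genes called went from 78 to 157, 120 to 191 and 222 to 358. DESeq2 called 2, 1 and 0 in these, beside 97, 121 and 256 of all genes. With the replicate block the counts were 21 for ISO without Dox (3504 of all genes, in place of 2846), 20 with Dox, 2 for SR-3420 without Dox, 11 with Dox, 6 for Dox in DMSO (271 of all genes, in place of 120), 2 for the ISO difference and 0 for the SR-3420 difference (339 of all genes, in place of 77); the numbers did not pair the libraries by the correlation rule for ISO without Dox or for Dox in DMSO, although 43 of 45 correlated best with their own number. Without 1 library at a time, counts ran from 11 to 17 for both ISO comparisons, from 0 to 1 for SR-3420 without Dox, from 3 (without DMSO with Dox replicate 1) to 7 with Dox, from 0 to 2 for Dox in DMSO and from 0 to 1 for the ISO difference. In the same fits all genes called ran from 2028 to 2620 and from 2570 to 3025 for ISO without and with Dox, from 28 to 53 and from 639 to 847 for SR-3420, from 77 to 143 for Dox in DMSO and from 111 to 301 for the ISO difference. Without replicate 2 of all groups, an alternative chosen after seeing the data, Dox in DMSO called 2 and the ISO difference 1, beside 128 and 251 of all genes. Scaling by totals alone moved the median log2 fold change of all genes to -0.19 for ISO without Dox, -0.16 with Dox, -0.21 for SR-3420 with Dox and -0.14 for the SR-3420 difference. Of the chain ratios, Col1a2 to Col1a1 with ISO ran from -0.34 to -0.20 with 1 library left out and passed without DMSO with Dox replicate 3, and Col4a2 to Col4a1 with SR-3420 ran from 0.11 to 0.19 and passed without SR-3420 without Dox replicate 2. Over same-numbered pairs, a replicate block added after seeing the data, these values stayed at -0.26 and 0.15 and reached an adjusted p of 0.05 in the exact sign-flip test. The causes were not tested. Totals of 689910 to 1956565 counts limit rows such as Col14a1, Col8a1 and Adamts5, where single groups hold few counts.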
